A study of Arabidopsis thaliana with 6 samples.

Results

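A set of 57 genes gave a higher signal in replicate 1 than in replicates 2 and 3, both among the arrays of the Arabidopsis pvip1 pvip2 double mutant and among those labelled as the wild type Col-0, whose replicate 1 lacks the signal of a targeted gene that the other Col-0 arrays have. The genes were chosen by these measured values. A probe set named with 1 gene entered when its highest array value reached 5 on the log2 scale, when replicate 1 exceeded the mean of replicates 2 and 3 by at least 1 in each genotype, and when the genotype means lay less than 1 apart. A log2 difference of 1 is a factor of 2, and the difference between replicate 1 and the mean of the other replicates is called the excess below. Of 22746 probe sets other than controls, 13513 are named with 1 gene, 6240 of these reached the level of 5, and 57 were members. IAA29, HAT2 and WES1, which belong to the auxin and shade response, were left out by name.

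The study set seedlings of pvip1 pvip2 beside Col-0, the standard laboratory accession, on single-colour ATH1 arrays, with 3 arrays for pvip1 pvip2 and 3 arrays for Col-0. PVIP genes encode PHD-finger proteins, also named OBERON, that act in meristem formation. All seedlings grew on MS agar plates at 21 °C under 16 h of light and were harvested 10 days after germination, with roots taken off the Col-0 seedlings and the mutants cut at their vestigial hypocotyl. The alleles behind pvip1 and pvip2, the hour of harvest and the number of seedlings behind an array are not given in the sources used here, and neither is what the arrays of one replicate number share. In RNA of whole shoots, fewer cells of a type and less RNA per cell cannot be told apart.

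Seedlings read light through photoreceptors such as the phytochromes. Below them the bZIP factors HY5 and its homologue HYH switch on light-dependent genes, among them those for flavonoids, which screen tissue from strong light and ultraviolet. The plastid genome encodes core proteins of photosystem II, whose RNA levels follow light and plastid state. Sugar transporters of the SWEET family, proteins of the response to water deficit and the circadian clock also change through the day or with growth conditions. Some named members fall in the first of these groups, from light to water deficit, and others belong to the cell wall, transport or defence. None was on a clock list, but few clock genes could be read. These were 3 of 22 loci of the morning and day phase and 3 of 17 of the evening phase. No measurement of light, hour or stress accompanies the arrays, so the part of each in the excess was not tested.

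One array went against its label, and another stood apart. OBE1, one of the targeted genes, gave 2.54, 2.61 and 2.53 in pvip1 pvip2, against 2.42 in the array labelled Col-0 replicate 1 and 5.08 and 5.17 in Col-0 replicates 2 and 3. The array labelled Col-0 replicate 1 therefore lacked the OBE1 signal of its group, although at 2056 of 2450 probe sets that were called between the genotypes without it, 83.9%, its value lay nearer to Col-0. Whether the sample was mislabelled or mixed was not tested. The same share was 78.2% for pvip1 pvip2 replicate 1 and ran from 92.1% to 96% for the 4 arrays of replicates 2 and 3. Every excess in Col-0 rests on the array labelled Col-0 replicate 1. With that array left out, Col-0 has no replicate 1, and the condition in pvip1 pvip2 alone gave 114 genes, of which 49 were among the 57. All 57 meet that condition by the rule, and only the genotype bound, taken without the array, could remove one. The overlap is therefore largely fixed. Col-0 replicate 3 had a log2 ratio of 3′ to 5′ control signal of 2.91, against 1.95 to 2.07 on the 5 other arrays, and a 25S ribosomal RNA signal of 10.15, against 5.96 to 7.67. The values of both controls overlapped between the genotypes (two-sided exact permutation tests, p = 0.5 for the ratio and p = 0.2 for the ribosomal RNA, where 0.1 is the smallest p that 3 against 3 arrays allow). From replicate 1 to 3 the ribosomal RNA signal rose in both genotypes. It stood at 5.96, 6.46 and 7.01 in pvip1 pvip2 and at 6.69, 7.67 and 10.15 in Col-0. The median log2 signal was lowest on the replicate 1 arrays, at 4.57 and 4.54, against 4.60 to 4.67 on the others. Both measures thus run along the replicate contrast. With array medians set equal, the rule gave 68 genes, 56 of them among the 57. The 57 then had median excesses of 1.78 in pvip1 pvip2 and 1.75 in Col-0. The ribosomal RNA signal cannot be told apart from the replicate contrast, and its part in the excess was not tested. Without Col-0 replicate 3 the rule gave 43 genes, 39 of them among the 57. Arrays of replicates 1 and 2 were processed on the first fluidics station and those of replicate 3 on the second, in both genotypes, and each genotype had modules of its own, so genotype and module cannot be told apart.

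Replicate 1 was high in both genotypes at more genes than it was low. In 79 of the 6240 probe sets, 1.27%, replicate 1 was higher by at least 1 in both genotypes. The reverse, replicate 1 lower by at least 1 in both, held for 6 probe sets, 0.0962%. The median probe set lay slightly below 0, at -0.13 in pvip1 pvip2 and -0.09 in Col-0, and the members' values are to be read beside that shift. The condition was met by 165 probe sets in pvip1 pvip2 taken alone and by 139 in Col-0 taken alone, so the 79 were 47.9% and 56.8% of these lists. Of the 79, 21 had genotype means at least 1 apart and WES1 was left out by name, which leaves the 57. Across the 6240 probe sets the excesses in pvip1 pvip2 and in Col-0 had a Pearson correlation of 0.576, and of 0.508 without the 57 genes. The probe sets share arrays and scaling, so this is a description and carries no test.

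**Figure D1:**
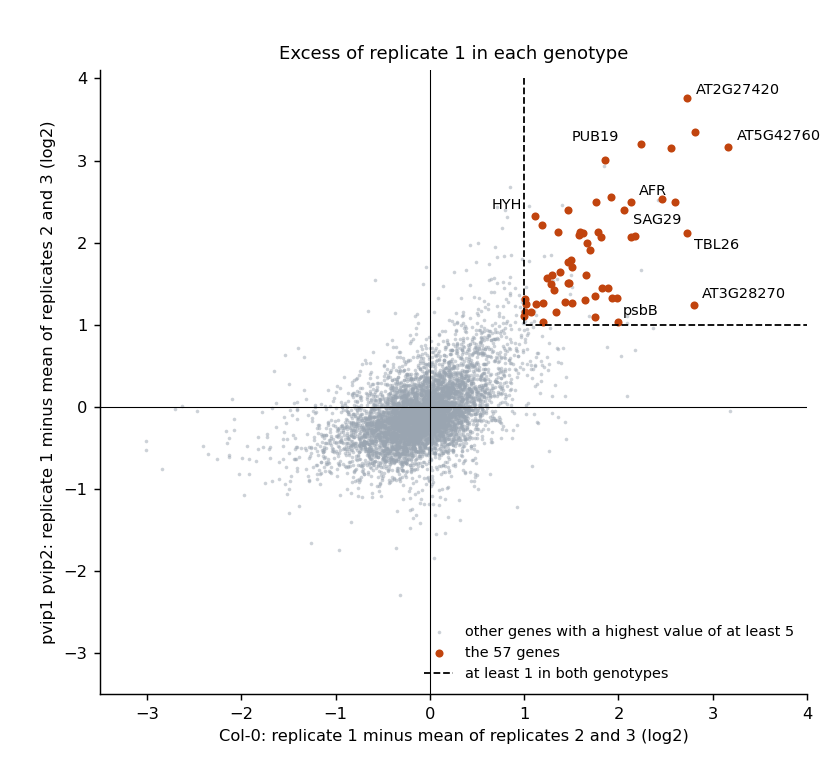
Excess of replicate 1 over the mean of replicates 2 and 3 in pvip1 pvip2 (vertical axis, log2) against the same in Col-0 (horizontal axis, log2), 1 point for each of 6240 probe sets named with 1 gene and reaching a value of 5. The 57 genes, in red, fill the corner beyond 1 on both axes by construction, and grey points there are genes with genotype means at least 1 apart or left out by name, while the opposite corner holds 6 probe sets.

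Among the 57, the excess in pvip1 pvip2 ran from 1.03 to 3.76 with a median of 1.7, and in Col-0 from 1.00 to 3.16 with a median of 1.65. The mean of both excesses was at least 1.5 in 38 genes, at least 2 in 16 and at least 3 in 3. The excess was larger in pvip1 pvip2 for 39 genes and larger in Col-0 for 18, against 3107 and 3133 of the 6240 probe sets. Each excess sets 1 array against 2 and has no replicate of its own, and the gap between replicates 2 and 3 is the spread at hand. That gap had a median of 0.47 in pvip1 pvip2 and 0.39 in Col-0 among the 57. In 53 genes both excesses were larger than the gap of their genotype, and the exceptions were AT5G15950, psbB, psbN and SAT32. In all 57 genes replicate 1 was the highest array of its genotype in both genotypes. In 54 of the 57 both replicate 1 arrays lay above all 4 other arrays, which held for 5.46% of the 6240 probe sets. The rule used these values, so the count is a description, and the exceptions were psbB, AT5G12050 and SAT32. The genes were of middling signal: the median of their means over 6 arrays was 5.73, against 6.33 for the 6240 probe sets.

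**Figure D2:**
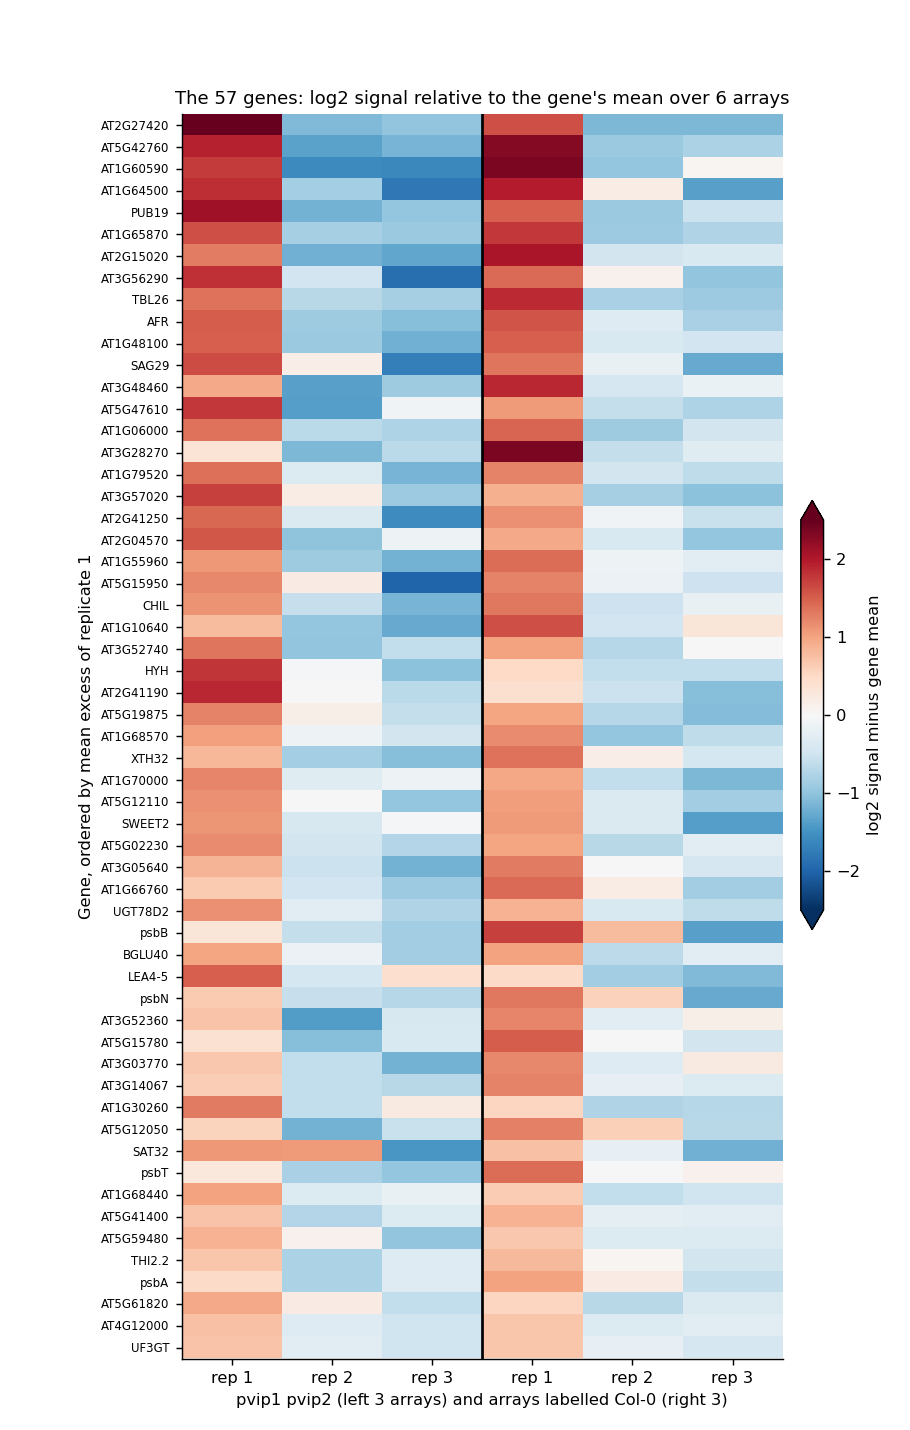
Log2 signal of the 57 genes on each array relative to the mean of the gene over the 6 arrays, with pvip1 pvip2 replicates 1 to 3 on the left and the arrays labelled Col-0 replicates 1 to 3 on the right. Rows run from the largest mean excess, 3.25 for AT2G27420, to the smallest, 1.06 for UF3GT, and the red columns are the replicate 1 arrays.

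The named members of light signalling and flavonoid synthesis were HYH, AFR, CHIL, UGT78D2 and UF3GT. HYH, the homologue of HY5, gave log2 signals of 5.34 in pvip1 pvip2 replicate 1 and 3.50 and 2.53 in its replicates 2 and 3, and in Col-0 it gave 4.05, then 2.94 and 2.95. It was highest on the replicate 1 array of each genotype, with an excess of 2.32 in pvip1 pvip2 and 1.11 in Col-0. Only pvip1 pvip2 replicate 1 reached the level of 5, and the Col-0 signal of HYH was low on all arrays. With a pseudocount of 64 on the linear scale its mean excess was 0.35. The pvip1 pvip2 arrays of HYH were not alike outside replicate 1, since replicate 2 lay 0.96 above replicate 3. AFR, an F-box protein of far-red signalling through phytochrome A, gave 7.80, 5.40 and 5.22 in pvip1 pvip2 and 7.86, 5.97 and 5.49 in Col-0. The replicate 1 arrays of AFR nearly coincided between the genotypes, and its excesses were 2.49 and 2.14.

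CHIL, a chalcone isomerase-like protein that raises flavonoid output, gave 7.24, 5.53 and 4.96 in pvip1 pvip2 and 7.43, 5.59 and 5.93 in Col-0. Its excess of 2.00 in pvip1 pvip2 and 1.66 in Col-0 stood above the gap between replicates 2 and 3 in either genotype. UGT78D2, which adds glucose to flavonols and anthocyanidins, gave 7.40, 6.0 and 5.51 in pvip1 pvip2 and 7.14, 5.89 and 5.63 in Col-0. UF3GT, also named UGT79B1, which adds a further sugar to anthocyanins, gave 5.28, 4.28 and 4.06 in pvip1 pvip2 and 5.25, 4.35 and 4.13 in Col-0. The values of UF3GT differed by under 0.1 between the genotypes at every replicate number, and with an excess of 1.00 in Col-0 it was the member nearest to the threshold.

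The wider list of 27 high light, ultraviolet and flavonoid genes had 7 loci with a probe set of their own name, 4 of which reached the level of 5, and 3 of these were members: HYH, UGT78D2 and UF3GT. The list's median excess was 1.98 in pvip1 pvip2 and 1.06 in Col-0, beside -0.13 and -0.09 over the 6240 probe sets. Of all 6240 probe sets, 57 were members. The list's medians are over 4 genes, 3 of them chosen by their excess, so the rule largely fixes them. UGT78D1, a flavonol rhamnosyltransferase, was the fourth, with 6.10, 4.21 and 3.21 in pvip1 pvip2 and 6.49, 5.58 and 5.80 in Col-0. Its excess of 2.39 in pvip1 pvip2 and 0.80 in Col-0 missed the threshold in Col-0, where replicates 2 and 3 also stood high. DFR, a reductase of the anthocyanin branch, met the replicate condition at 1.55 in pvip1 pvip2 and 1.54 in Col-0 but peaked at 4.96, below the level of 5. AT4G14090 had excesses of 1.33 and 0.90 and UGT84A1 0.47 and 0.64, both below that level. All 7 measured loci of the list had an excess above 0 in both genotypes, against 23.0% of the 6240 probe sets. The 3 members among them were chosen by their excess, and DFR, AT4G14090 and UGT84A1 had low signal. The count is therefore a description and was not tested. The other 20 loci of the list were not analysed here because no probe set is named with them alone.

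**Figure D3:**
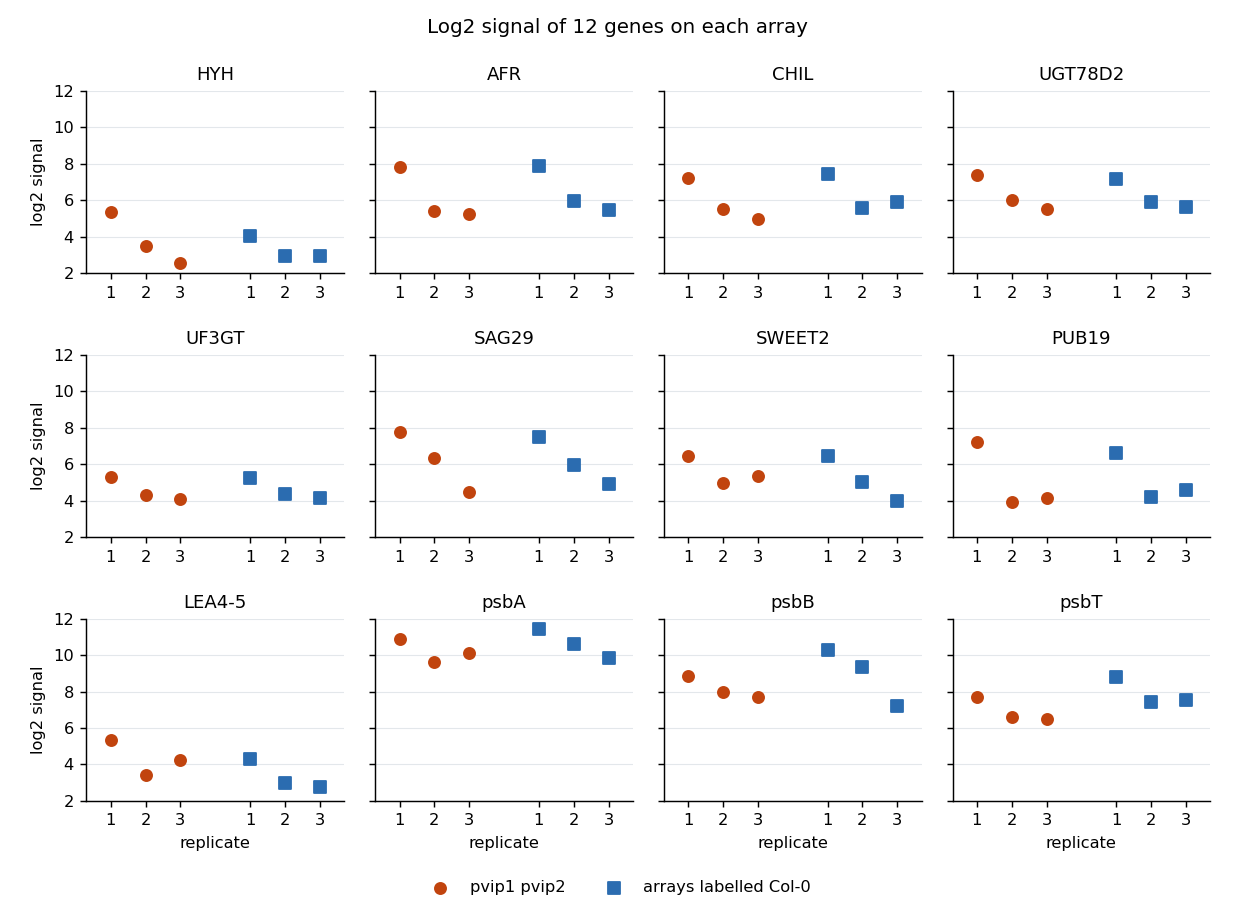
Log2 signal of 12 members on each array, with pvip1 pvip2 replicates 1 to 3 (red circles) left of the arrays labelled Col-0 replicates 1 to 3 (blue squares), each point being 1 array. In every panel the replicate 1 point is the highest of its genotype, and psbB shows its lowest point, 7.22, in Col-0 replicate 3.

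Of the plastid genome, 4 genes were members, and all of them are annotated with photosystem II names: psbA, psbB, psbT and psbN. psbA, which encodes a reaction-centre protein that turns over fast in light, gave 10.91, 9.64 and 10.11 in pvip1 pvip2 and 11.44, 10.63 and 9.83 in Col-0. psbB, which encodes a core antenna protein, gave 8.88, 7.98 and 7.71 in pvip1 pvip2 and 10.29, 9.37 and 7.22 in Col-0. The Col-0 excess of psbB, 1.99, leaned on Col-0 replicate 3: over replicate 2 alone the difference was 0.92. psbN, for a protein of photosystem II assembly, gave 8.20, 6.97 and 6.84 in pvip1 pvip2 and 8.86, 8.12 and 6.29 in Col-0. psbT, for a small photosystem II protein, gave 7.71, 6.63 and 6.48 in pvip1 pvip2 and 8.83, 7.44 and 7.53 in Col-0.

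Without Col-0 replicate 3, the Col-0 excess was 0.80 for psbA and 0.74 for psbN, under the threshold, and 1.38 for psbT. psbB, psbT and psbN are next to each other in the gene table, and psbB and psbT are known to share a transcript. Col-0 replicate 3 was low for other plastid genes that are no members, such as psaA, with 4.99 there against 11.10 and 10.85 in the other Col-0 arrays. Over all 65 plastid-encoded genes that reached the level of 5, the median excess was 0.30 in pvip1 pvip2 and 0.28 in Col-0, against -0.13 and -0.09 for the 6175 others. An excess above 0 in both genotypes was found in 45 of the 65 and in 1388 of the 6175.

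The plastid genes were not alike. Of the 15 photosystem II genes that reached the level of 5, all had an excess above 0 in both genotypes, with medians of 0.36 in pvip1 pvip2 and 0.58 in Col-0, and the 11 that were no members included psbD at 0.13 and 2.09, psbM at 0.40 and 0.29 and psbK at 0.36 and 0.21. The 14 plastid genes for ribosomal proteins had medians of 0.06 and -0.74, and 12 of them were below 0 in Col-0. The lowest was rps3, with 7.90, 9.72 and 6.91 in pvip1 pvip2 and 6.68, 9.73 and 9.64 in Col-0, an excess of -0.41 and -3.01. rpl22 followed at -0.57 and -2.35, and rpl36 at -0.91 and -1.29. In pvip1 pvip2 the excess of the 4 photosystem II members ran from 1.03 to 1.3, where the rule sets the lower limit of 1.

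A pair of SWEET sugar transporters was among the 57. SAG29, also named SWEET15, exports sucrose and is induced in senescence and osmotic stress. It gave 7.78, 6.33 and 4.44 in pvip1 pvip2 and 7.49, 5.97 and 4.90 in Col-0. Replicate 2 of SAG29 lay between replicates 1 and 3 in both genotypes, 1.89 above replicate 3 in pvip1 pvip2 and 1.07 in Col-0. SWEET2, a sugar transporter of the vacuole membrane, gave 6.46, 4.96 and 5.32 in pvip1 pvip2 and 6.43, 5.00 and 3.98 in Col-0, so its replicates 2 and 3 had opposite orders in the genotypes.

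Members named for water deficit, salt and defence differed in how steady they were. PUB19, a U-box ubiquitin ligase that dampens abscisic acid and drought responses, had the fifth largest mean excess, with 7.24, 3.93 and 4.15 in pvip1 pvip2 and 6.62, 4.19 and 4.59 in Col-0. Its excesses of 3.2 and 2.24 were several times the gap between replicates 2 and 3. LEA4-5, a protective protein of dry tissue, gave 5.33, 3.4 and 4.25 in pvip1 pvip2 and 4.32, 2.97 and 2.74 in Col-0, where all 3 arrays were lower than their pvip1 pvip2 counterparts. SAT32, which the gene table names for salt tolerance, gave 5.82, 5.80 and 3.28 in pvip1 pvip2 and 5.47, 4.53 and 3.54 in Col-0. In pvip1 pvip2 the first 2 arrays of SAT32 were level, and its excess there came from replicate 3. THI2.2, a thionin, one of the small antimicrobial peptides of plants, gave 8.83, 7.33 and 7.81 in pvip1 pvip2 and 8.94, 8.18 and 7.67 in Col-0.

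The members with roles in the cell wall or in transport and sugar conjugates were TBL26, XTH32, BGLU40 and AT1G68570. TBL26, of the family that acetylates wall polysaccharides, gave 6.05, 4.0 and 3.87 in pvip1 pvip2 and 6.56, 3.89 and 3.78 in Col-0. Its replicates 2 and 3 differed by at most 0.13, and the excess was 2.12 in pvip1 pvip2 and 2.73 in Col-0. XTH32, of the enzymes that cut and rejoin xyloglucan, gave 7.07, 5.38 and 5.18 in pvip1 pvip2 and 7.60, 6.41 and 5.80 in Col-0. BGLU40, of the beta-glucosidase family, gave 6.64, 5.50 and 4.78 in pvip1 pvip2 and 6.65, 4.99 and 5.36 in Col-0. AT1G68570, which the gene table also calls NPF3.1, of the nitrate and peptide transporter family, gave 8.09, 6.93 and 6.6 in pvip1 pvip2 and 8.25, 6.09 and 6.42 in Col-0.

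A symbol was available for 18 of the 57 genes, and the other 39 have a locus code as symbol. Of these 39, AT1G68570 has the gene name above among its synonyms and AT1G30260 has AGL79, while the rest are not named in the tables used here and are given no function. Among the 15 genes with the highest mean excess, 11 have a locus code. AT2G27420 stood first on the log2 scale as deposited, with 6.30, 2.48 and 2.60 in pvip1 pvip2 and 5.19, 2.45 and 2.47 in Col-0. Its 4 arrays of replicates 2 and 3 were at the bottom of the scale and close to each other. AT5G42760 gave 6.16, 2.89 and 3.08 in pvip1 pvip2 and 6.54, 3.3 and 3.45 in Col-0. AT1G60590 gave 6.88, 3.55 and 3.53 in pvip1 pvip2 and 7.50, 4.18 and 5.19 in Col-0. These 3 were the genes with a mean excess of at least 3.

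AT1G65870 gave 5.77, 3.33 and 3.23 in pvip1 pvip2 and 5.93, 3.25 and 3.41 in Col-0. AT2G15020 gave 5.01, 2.53 and 2.43 in pvip1 pvip2 and 5.78, 3.27 and 3.35 in Col-0. Along with AT2G27420, AT5G42760, AT3G28270 and HYH, they make up the 6 genes for which all 4 arrays of replicates 2 and 3 lay under 3.81, the 40th percentile of the mean signal. In that range the deposited values depend on how background was removed, so the excess of these 6 is less certain in size, and so is their rank. With a pseudocount of 64 on the linear scale the mean excess of AT2G27420 was 0.78, below 1.68 for AT3G56290, 1.49 for AT1G64500 and 1.40 for AFR. A second kind of pattern had replicate 2 well above replicate 3. AT1G64500 gave 7.59, 4.91 and 3.97 in pvip1 pvip2 and 7.72, 5.94 and 4.39 in Col-0. AT3G56290 gave 8.78, 6.48 and 5.06 in pvip1 pvip2 and 8.37, 7.05 and 5.97 in Col-0.

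The other 4 locus-code genes among the 15 had close replicates 2 and 3, with 1 exception. AT1G48100 gave 6.01, 3.59 and 3.31 in pvip1 pvip2 and 6.01, 4.14 and 4.03 in Col-0. AT3G48460 gave 7.13, 4.81 and 5.28 in pvip1 pvip2 and 8.06, 5.75 and 6.01 in Col-0. AT1G06000 gave 6.89, 4.87 and 4.76 in pvip1 pvip2 and 6.99, 4.64 and 5.07 in Col-0. In these 3 the gap between replicates 2 and 3 was under 0.5 in either genotype. AT5G47610 was less even, with 7.61, 4.48 and 5.77 in pvip1 pvip2 and 6.92, 5.25 and 5.09 in Col-0. The remaining 28 locus-code genes had mean excesses from 1.08 to 2.02 with a median of 1.63. Their highest excess was 2.40 in pvip1 pvip2 and 2.80 in Col-0. The highest in Col-0 was that of AT3G28270, whose signal was 4.19, 2.73 and 3.17 in pvip1 pvip2 and 6.21, 3.27 and 3.55 in Col-0.

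Clock genes and other lists were set beside the members for comparison. The lists hold 525 loci in 24 gene groups and 5 groups of cell type markers, and 80 loci have a probe set of their own name. Of the 53 that reached the level of 5, 27 or 50.9% had an excess above 0 in both genotypes, against 23.0% of the 6240 probe sets. The 53 include 3 members chosen by their excess, and the lists were chosen with earlier results of these data known. The share is therefore a description and was not tested. A difference of at least 1 upward in both was found in 4: the 3 flavonoid members and COR15A, and in the downward direction in none. COR15A, a chloroplast protein of freezing tolerance, gave 4.90, 3.28 and 2.85 in pvip1 pvip2 and 5.88, 4.19 and 5.16 in Col-0, and it was no member because its genotype means lay 1.40 apart.

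Of the clock genes, 6 could be read. On the list for the morning and day phase, AT4G01280 had excesses of 0.09 and 0.39, AT5G52660 of 0.34 and 0.71, and AT1G69570 of 0.66 and 0.47, in pvip1 pvip2 and in Col-0. All 3 were above 0 in both genotypes and none reached 1. On the list for the evening phase, GI, which acts in flowering time and the clock, gave 7.62, 7.34 and 8.35 in pvip1 pvip2 and 7.92, 7.93 and 8.06 in Col-0. COR27, a cold-regulated repressor within the clock, gave 6.20, 6.89 and 7.37 in pvip1 pvip2 and 5.98, 7.48 and 7.55 in Col-0. COR27 was lowest in replicate 1 of both genotypes, with an excess of -0.93 in pvip1 pvip2 and -1.54 in Col-0. AT4G33980 had 0.17 in pvip1 pvip2 and -0.80 in Col-0. The best known clock genes, such as CCA1, LHY and TOC1, were not analysed here.

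The remaining lists held no member, but several could not have held one. With 57 members among 6240 probe sets, a short list would seldom hold any, so nothing is read from their absence. No probe set is named alone with a gene of B-box light signalling, abscisic acid and drought, brassinosteroid and gibberellin, or phosphate starvation. No gene of the salicylic acid defence and cytokinin lists reached the level of 5, so these lists could not be read. Photosynthesis and chlorophyll genes of the nucleus had a median excess of 0.52 in pvip1 pvip2 and 0.19 in Col-0 over 8 genes, and none was a member. LHCB4.3, a minor antenna protein, was the highest of them in both genotypes, at 1.55 and 0.62. The cold list of 5 genes had medians of 0.72 and 0.71, and LTI30, a dehydrin, had excesses of 1.82 and 0.71. The 2 genes of starch breakdown were below 0 in both genotypes: PWD, a glucan phosphorylating enzyme, at -0.49 and -0.69, and DPE1, a plastid glucan disproportionating enzyme, at -0.44 and -1.11. The 2 genes of protein folding in the endoplasmic reticulum were also below 0 in both, with medians of -0.52 and -0.60. Cell wall loosening genes had medians of 0.02 and 0.40 over 6 genes, and cell cycle genes 0.36 and -0.21 over 3. No set test was made on any list.

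Few cell type markers could be read. The 5 marker groups hold 43 loci, of which 8 have a probe set of their own name and 3 reached the level of 5. PYK10, a beta-glucosidase of root and hypocotyl, gave 11.78, 11.76 and 11.80 in pvip1 pvip2 and 10.06, 10.01 and 9.98 in Col-0, so its replicates differed by less than any excess of the members while the genotypes stood apart. The root hair expansins EXPA7 and EXPA18 stayed below 5 on all arrays. FAMA, a regulator of stomatal guard cells, had excesses of 0.27 in pvip1 pvip2 and 0.07 in Col-0, and the seed gene AT3G15670 of -0.84 and 0.22. RCA, the Rubisco activase of green tissue, lay between 12.07 and 12.82 on the 6 arrays, near the top of the scale.

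**Figure D4:**
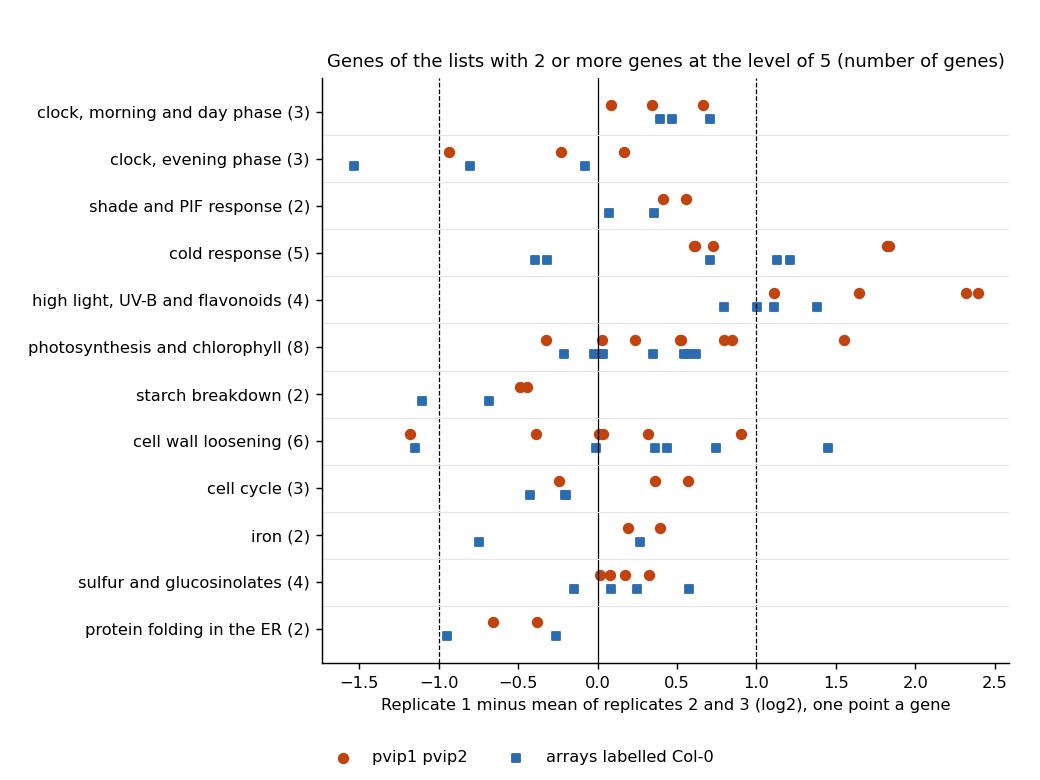
Excess of replicate 1 (log2, horizontal axis) of each gene on the lists with at least 2 genes that reached the level of 5, with the number of genes in brackets, in pvip1 pvip2 (red circles, upper row of each list) and in Col-0 (blue squares, lower row). The high light, ultraviolet and flavonoid list lies furthest to the right, with medians of 1.98 and 1.06, while starch breakdown lies left of 0 with medians of -0.47 and -0.90. Of the 4 genes on the flavonoid list, 3 are members chosen by their excess, so the rule largely fixes its place.

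The order of replicates 2 and 3, which the rule only averages, was a mixed one. Replicate 2 was above replicate 3 in 38 of the 57 genes in pvip1 pvip2, 66.7%, and in 34 in Col-0, 59.6%, against 49.1% and 48.8% of the 6240 probe sets. It was above in both genotypes in 24 genes, 42.1%, against 23.1% of the 6240, and below in both in 9. The median difference was 0.19 in pvip1 pvip2 and 0.15 in Col-0. A difference of at least 0.5 in both genotypes was found in 6 of the 57, 10.5%, against 0.801% of the 6240, and a difference of at least 1 in both in AT3G56290 and SAG29. These shares describe the same arrays that chose the genes and were not tested.

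On the first fluidics station, which held replicates 1 and 2 of both genotypes, replicate 1 was at least 1 above replicate 2 in 52 of the 57 genes in pvip1 pvip2, 49 in Col-0 and 46 in both, against 217, 131 and 81 of the 6240 probe sets. The rule holds replicate 1 above the mean of replicates 2 and 3, so it largely fixes these counts. The median of that difference was 1.63 in pvip1 pvip2 and 1.51 in Col-0. The rule applied to the first station alone gave 58 genes, 44 of them among the 57. Replicate 1 was at least 1 above replicate 2 and also above replicate 3 in both genotypes in 42 genes.

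Between the genotypes the 57 genes were held within 1 by the rule, so their genotype test is given as a description. Genotype means differed by -1.0 to 0.99, with a median of -0.18, and were lower in pvip1 pvip2 in 37 genes and higher in 20, against 3397 and 2843 of the 6240 probe sets. The median difference, pvip1 pvip2 minus Col-0, was -0.05 at replicate 1, -0.26 at replicate 2 and -0.27 at replicate 3, and over the 6240 probe sets these medians were -0.05, -0.07 and -0.03. The genotypes lay within 0.5 of each other in 31, 26 and 31 of the 57 genes at replicates 1, 2 and 3. Over the 6240 probe sets these counts were 4202, 3597 and 3558, a larger share than among the 57 at each replicate number. With limma, 20.5% of 13648 probe sets were called at an adjusted p under 0.05, and of the 54 genes that passed the filter on low values 0 were called, also at an unadjusted p under 0.05. With the replicate number as a block, 30.3% of the probe sets were called and 12 of the 54 genes: 3 higher and 9 lower in pvip1 pvip2, with 21 at an unadjusted p under 0.05. The block takes out the very difference by which the genes were chosen, and nothing is read from either count.

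Members just inside the thresholds had neighbours just outside. By the lower of the 2 excesses, UF3GT, AT4G12000 and AT5G59480 stood at 1.00, 1.00 and 1.01, and AT5G52420, SKP2A and SP1L4 missed at 0.99, 0.98 and 0.97. By highest array value, AT4G12000, UF3GT and LEA4-5 entered at 5.25, 5.28 and 5.33, and DFR and AT1G78070 missed at 4.96 and 4.76. By genotype difference in size, psbT, LEA4-5 and AT3G28270 entered at 1.00, 0.99 and 0.98, and AT2G19650, AT3G53960 and AT1G65490 missed at 1.04, 1.05 and 1.11. Of the genes left out by name, WES1 had excesses of 1.04 and 1.01, HAT2 of 0.65 and 1.14, and IAA29 of 0.46 and 1.07, in pvip1 pvip2 and in Col-0. The 57 genes lay on all 5 chromosomes, with 16 on chromosome 1, 7 on chromosome 2, 11 on chromosome 3, 2 on chromosome 4 and 17 on chromosome 5, and 4 in the plastid genome.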

How the data were processed

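Seedling RNA was measured on 6 arrays, and the deposited table holds 1 log2 value for each probe set and array, made by the authors. Per the submitters' processing notes GCOS was used, with no version stated. The background correction and scaling behind the values are not given in the sources used here. Fluidics stations and modules came from the deposited scanner files. Names came from the platform annotation and the TAIR10.1 gene table. Groups and replicate numbers came from the labels, which call the samples biological replicates.

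The replicate contrast has no test, because replicate 1 was picked with its values known. Genotypes were tested with limma 3.58.1 under R 4.3.3 (eBayes with a trend, two-sided, Benjamini-Hochberg over all 13648 probe sets with a mean of at least 3.81, the 40th percentile), on simulated data first. The p values set each genotype difference against the spread between arrays of the same genotype. Without a block, that spread includes the differences between replicate numbers. Precision is limited by how few arrays there are. Deviations from the genotype mean correlated at r = 0.539, 0.311 and 0.121 between arrays of replicate number 1, 2 and 3 across probe sets, all above 0.1. The fit with the replicate number as a block takes the numbers as pairs, while the main fit has genotype only and leaves the pairing out. Between differing numbers, replicates 2 and 3 reached 0.228 and 0.099, so these 2 numbers are weakly separated. Col-0 replicate 3 correlated more with pvip1 pvip2 replicate 2, at 0.228, than with pvip1 pvip2 replicate 3, at 0.121, so pairing by number 3 is not borne out.

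The members and lists were chosen with earlier results of these data known. The rule for named genes takes the 15 members with the highest mean excess, members on a list, up to 4 of a symbol family, those nearest each threshold and the clock genes. Members with a symbol, the grouping by role and the list genes named beside them were chosen after their values were seen. Alternatives were other scalings, a pseudocount of 64, other levels and filters, blocks and leaving out arrays. Promoter sequences were not analysed here, so the planned motif counts were not made.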

Additional observations from a re-analysis of the deposited data

How the results depend on the processing

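The number of genes by the rule, 57, was 14 (13 of them among the 57) with a pseudocount of 64 added on the linear scale, which shrinks differences at low signal, 32 at a level of 7, and 114 (49 shared) with the condition in pvip1 pvip2 alone, without Col-0 replicate 1. All 57 meet that last condition by the rule, which largely fixes the 49. The number was 68 with equal array medians and 63 with quantile normalization (56 shared each), 42 against the higher of replicates 2 and 3, 59 at a level of 4, 58 on the first fluidics station alone, an alternative chosen after seeing the data, and 43 to 56 with 1 array left out. The pseudocount gave median excesses of 0.91 in pvip1 pvip2 and 0.89 in Col-0, and with it 0 list genes and 0 flavonoid genes were higher by 1 in both genotypes. List genes lower in both numbered 0 to 1 with 1 array left out. Over 8 alternatives, 207 of 232 recomputed mean excesses of 29 named members stayed within the spread between replicates. The other 25 moved by more, most of them with the pseudocount and the rest with equal array medians. With the pseudocount most of the named members moved. SAT32, whose spread is wide, fell from 1.36 to 0.39 with it and still counts as within the spread. None changed sign, and the lowest value was 0.31, with the pseudocount. The genotype comparison called 2803 probe sets, against 1826 with the filter at the 60th percentile, 967 on the first station alone, 4129 with the replicate block and 1661 to 2736 with 1 array left out. The members called numbered 0, against 12 with the replicate block and 0 to 1 with 1 array left out. The difference of AT3G57020, 0.65, ran from -0.043 (without pvip1 pvip2 replicate 1) to 1.27 (without pvip1 pvip2 replicate 3) with 1 array left out, and that of AT3G14067, -0.46, from -0.88 (without pvip1 pvip2 replicate 1) to 0.041 (without Col-0 replicate 1). The planned promoter motif counts were not run.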

Other observations

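A further 21 genes met the replicate condition but had genotype means at least 1 apart, 8 higher and 13 lower in pvip1 pvip2. AT1G65490 had the largest mean excess among them, 2.47, with 9.42, 7.82 and 5.98 in pvip1 pvip2 and 8.24, 6.65 and 5.00 in Col-0, so that its signal differed between all 3 replicate numbers by over 1 in both genotypes. AT3G21670 gave 9.07, 6.42 and 5.84 in pvip1 pvip2 and 9.81, 7.53 and 8.39 in Col-0. EXPB3, a beta-expansin of the cell wall, gave 4.83, 3.6 and 3.84 in pvip1 pvip2 and 7.23, 5.15 and 5.13 in Col-0. ECS1 gave 10.07, 8.65 and 7.80 in pvip1 pvip2 and 11.11, 10.35 and 9.30 in Col-0.

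The 6 genes lower in replicate 1 of both genotypes included PDF2.1, of the plant defensin family, with 4.32, 4.43 and 6.79 in pvip1 pvip2 and 3.91, 4.78 and 6.04 in Col-0. Its replicate 3 arrays were the high ones in both genotypes. OSM34, an osmotin-like protein of stress and defence, gave 8.37, 9.45 and 9.30 in pvip1 pvip2 and 4.18, 4.33 and 7.01 in Col-0, where replicate 3 alone was high. The other 4 carry a locus code only, and AT5G40450 had the largest deficit of those with genotype means less than 1 apart, with 3.05, 5.12 and 4.3 in pvip1 pvip2 and 3.3, 4.29 and 4.85 in Col-0. Among the 5675 probe sets without a single named gene that reached the level of 5, 106 met the replicate condition, 1.87%. The share was 1.27% of the 6240 probe sets named with 1 gene, 79 in number.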
